A study of Mus musculus with 2 samples.

Results

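Among the melanocyte cells sorted from early-anagen skin, a group with a strong interferon response was examined. The members were selected on measured values: of the early-anagen barcodes with more than 10000 UMIs (unique molecular identifiers, each 1 counted RNA molecule), less than 5% of UMIs from mitochondrial genes, at least 1 Dct UMI and fewer than 3 UMIs of Krt10 plus Krt14, the top 5% by the share of UMIs in Gbp2, Ifit3, Iigp1, Ifi47, Isg15 and Gbp7 were taken. This gave 139 members of 2785 cells within the filter, of 11010 barcodes in the library and of 15337 barcodes in the series. The other 2646 cells of the filter served for comparison. The 6 genes of the rule chose the members, so their values are given only to describe the choice and they are left out of every gene list and ratio below. The series held 2 droplet libraries of sorted GFP+ cells, both from mice carrying Dct-rtTA and tetO-H2B-GFP, in which the Dct promoter drives a doxycycline-dependent activator of a histone–GFP fusion. The sort could thus hold any cell with Dct promoter activity, present or recent. The early-anagen library, labelled activated melanocyte stem cells (McSCs), was made from back skin 4 days after depilation at 8 weeks of age. The library of mature bulb melanocytes came from anagen hair bulbs of mice aged 5 weeks and was used here only for levels side by side. Each library combined the cells of 4 mice, and which mouse a cell came from was not recorded, so a share of members per mouse could not be given. There was 1 library per condition. Cells are not replicates, so no test was made and no p-value is given. The intervals below cover counting error only.

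Interferons are secreted warning signals that act on neighbouring cells. Type I interferons act through the receptor of Ifnar1 and Ifnar2, and the kinases Jak1 and Tyk2, to activate a complex with Stat2 and Irf9 that binds the interferon-stimulated response element (ISRE). Interferon gamma, made mainly by T and natural killer cells, acts through Ifngr1 and Ifngr2, and the kinases Jak1 and Jak2, to activate a factor that binds the gamma-activated site (GAS). The genes switched on include antiviral proteins, GTPases that attack vacuoles of intracellular microbes, the machinery that shows peptides to T cells, and chemokines that attract T cells. Anagen hair follicles are known for low major histocompatibility complex (MHC) class I, which is part of their immune privilege.

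The members held the markers of melanocytes. For equal depth, 10000 UMIs were drawn at random from every cell. Dct was a condition of the filter and says nothing here. UMIs of Tyrp1 and Mlana were in 139 of 139 members, and Sox10, the neural crest factor that maintains the lineage, was in 65.5% of members and 64.4% of other cells. Summed over the 7 melanocyte markers other than Dct, the level was 14379 CPM (UMIs scaled to a total of 1000000 per group) in members, 17413 CPM in other cells and 1244 CPM in 68 deep barcodes of the library with at least 100 UMIs of Krt10 plus Krt14, called keratin-rich here. None of the 7 differed by 2-fold or more between members and other cells. The 5 markers given for the group were checked too. Gbp2, Ifit3, Iigp1 and Ifi47 belong to the rule and were in 79.9%, 65.5%, 63.3% and 55.4% of members. H2-Ab1, which the rule did not use, was in 33.1%, so it did not mark most members.

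Before thinning, the members held a median of 46 UMIs of the 6 genes (13 to 366), against a median of 2 (0 to 58) in other cells, 677 of which had none. As a share this was a median of 2165 CPM in members, with a highest of 19584. The lowest member had 1047 CPM (32 of 30566 UMIs) and the next cell outside had 1040 (21 of 20186 UMIs), so no gap separated the groups. A median member had UMIs of 5 of the 6 genes, and the lowest had 1. Members were somewhat shallower, with a median of 20028 UMIs per cell (10142 to 63713) against 24680, and 4240 against 4694.5 detected genes. The mitochondrial share was alike, with medians of 3.05% and 3.07%. Xist was at 0 in both groups, and a UMI of any of 4 Y-linked genes was in 61.2% of members and 63.5% of other cells. The 2 libraries shared 1 barcode.

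Markers of other cell types were near 0 in members. The summed level of 14 T and natural killer cell markers was 0.719 CPM in members, from a single UMI of Thy1, and 0.756 CPM in other cells. Ptprc, Cd3e, Trac, Cd8a and Nkg7 were at 0 in members. The 13 myeloid and Langerhans markers summed to 2.88 CPM against 5.82 CPM, with Cd68 the most abundant at 1.44 CPM and with Csf1r, Itgax, Cd207, C1qa and Tyrobp at 0. Endothelial markers (1.44 against 3.55 CPM, Plvap the most abundant and Pecam1 at 0), fibroblast markers (1.44 against 1.17 CPM, Col1a1 at 0) and mast cell markers (0 in both) were as low. The filter kept Krt10 and Krt14 low in members and other cells alike and high in keratin-rich barcodes. The 10 keratinocyte markers outside the filter summed to 52.5 CPM in members, led by Lgals7 at 28.8 CPM, to 71.4 CPM in other cells and to 31866 CPM in keratin-rich barcodes, levels that the keratin limits also bear on. Of the Schwann cell markers, Foxd3, a factor shared with the melanocyte lineage, was found at 147 CPM against 114 CPM in other cells, whereas Mbp and Sox2 were at 0 in members. A UMI of any of 7 immune markers was in 1 of 139 members (0.719%, exact 95% interval 0.0182 to 3.94) and in 32 of 2646 other cells (1.21%).

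The promoters of the genes that were higher in members were examined for what they share in sequence. Promoters of RefSeq on GRCm38.p6, from 250 bases before to 50 bases after the gene's start, were searched on both strands for the ISRE core (GAAA, 2 bases of any kind, GAAA) and for the GAS core TTCNNNGAA, which reads alike on both strands. Of the 15 named genes that were higher in members (those with the largest ratios at a mean of 50 CPM or more), 13 were under 50 CPM in other cells and passed only through the members, so their direction was fixed by that minimum. Of the 15, 10 had a promoter in the table, and 6 of these genes (60.0%) held an ISRE core and 2 a GAS core. Among all 27025 genes with a promoter, 3.99% held the first and 9.55% the second. Counted by genes with the core in at least 1 of their listed promoters, the ISRE core was in 7 of 7 interferon-inducible GTPases, 13 of 28 antiviral effectors, 5 of 17 class I genes and 0 of 10 pigmentation genes. Counted by promoters, it was in 7 of 8 for GTPases. The GAS core was in 5 of 7, 8 of 28, 2 of 17 and 0 of 10 of these genes. Of the class II genes, 1 of 11 held the ISRE core and 1 of 11 the GAS core. For STAT and IRF factors the counts were 2 of 9 and 3 of 9. A match is a description of the letters and not a shown binding site. The following stretches are shown because they hold the cores of genes that the results turn on. They run 5′ to 3′ on the strand of the gene, with the cores in capitals, where TTTC, 2 bases and TTTC is the ISRE core read on the opposite strand:
Igtp, chr11:58199499-58199543, plus strand: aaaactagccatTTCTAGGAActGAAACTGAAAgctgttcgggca
Tgtp2, chr11:49064261-49064305, minus strand: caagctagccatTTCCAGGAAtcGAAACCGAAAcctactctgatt
Irgm1, chr11:48871423-48871462, minus strand: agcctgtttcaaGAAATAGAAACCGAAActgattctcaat
Gbp3, chr3:142559987-142560026, plus strand: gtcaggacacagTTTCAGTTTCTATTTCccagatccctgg
Ifit1, chr19:34640773-34640825, plus strand: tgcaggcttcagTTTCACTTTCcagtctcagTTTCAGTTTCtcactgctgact
Cxcl10, chr5:92349081-92349114, minus strand: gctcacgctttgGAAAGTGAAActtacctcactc
H2-T23, chr17:36032804-36032837, minus strand: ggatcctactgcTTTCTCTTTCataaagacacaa
Psmb8, chr17:34198086-34198118, plus strand: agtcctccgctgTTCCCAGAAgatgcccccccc
Irf1, chr11:53769912-53769944, plus strand: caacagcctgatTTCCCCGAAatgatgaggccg
In Igtp and Tgtp2, GTPases of the immunity-related family, the GAS core stood 2 bases before the ISRE core. Gbp3 and Irgm1 each held 2 overlapping ISRE cores, from 45 to 30 and from 30 to 15 bases before the start that RefSeq gives, and the 2 cores of Ifit1 lay from 104 to 76 bases before it. For Irgm1, Psmb8 and H2-T23 that start lies inside the gene positions of GENCODE printed below, so the stretches shown fall within those genes and not upstream of them. Irf1, an interferon-induced factor, and Psmb8 held a GAS core but no ISRE core in this window. Cxcl9, Irf7 and H2-Aa had neither core in it, which says only that these letters are not there.

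Over 123 interferon-related genes of 8 lists (class I and class II presentation, antiviral effectors, GTPases, STAT and IRF factors, ISG15 conjugation and PARP, nucleic acid sensors, and chemokines and cytokines), the members had a median of 178 UMIs per 10000 (48 to 775). The other cells had a median of 52 (10 to 428). The ranges overlapped: 52 other cells reached the median of the members, 25 members lay at or under the 90th percentile of the other cells, 108.5 UMIs, and 1 member lay at or under their median.

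**Figure D1:**
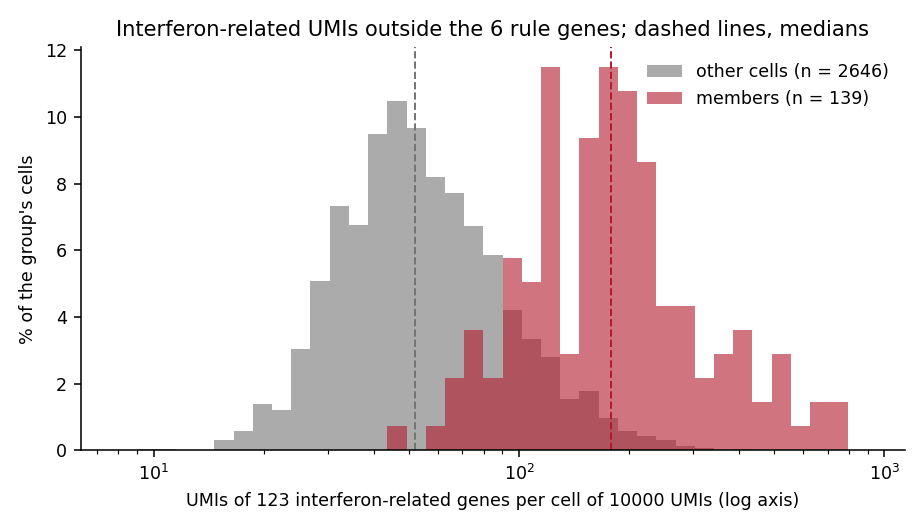
UMIs of 123 interferon-related genes per cell thinned to 10000 UMIs, with the 6 rule genes left out, on a log axis, as the percentage of 139 members (red) and 2646 other cells (grey) in each bin. Dashed lines mark the medians of 178 and 52, and the overlap of the distributions can be seen between them.

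Across the genes of at least 10 CPM (mean of both groups), 128 of 7480 were at least 2-fold higher in members (1.71%) and 60 were at least 2-fold lower (0.802%). The median log2 ratio of these genes was -0.03. Of the 128 genes, 75 were in lists of genes chosen for this work and 53 were not. A gene could pass the minimum through the members alone and then had to be higher in them, so the interferon-related lists are given with how many genes passed, how many would have passed on the level of the other cells alone, and the summed CPM over all genes of the list.

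MHC class I presentation, by which every nucleated cell shows peptides of its own proteins to CD8 T cells, was higher in members. Of 21 genes, 18 passed the minimum (16 on the other cells alone), and 18 were at least 2-fold higher, with a median log2 ratio of 2.25. The summed level was 11824 CPM in members, 4322 in other cells and 3829 in keratin-rich barcodes. The most abundant was B2m, the light chain, with a median of 35 UMIs per member (9 to 135) and a level of 4124 against 1990 CPM (log2 ratio 1.05, 95% interval 1.01 to 1.09). The classical heavy chains H2-K1 (1340 against 410 CPM, 1.71) and H2-D1 (2515 against 1164 CPM, 1.11) differed less than the non-classical H2-T23, a ligand of inhibitory receptors on natural killer cells (chromosome 17, 36029773 to 36032855). H2-T23 had a median of 4 UMIs per member (highest 32), a level of 621 against 74.3 CPM (3.06, 2.95 to 3.18), and a UMI in 94.2% of members and 36.0% of other cells. It was in 58.8% of keratin-rich barcodes, at 141 CPM.

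The peptide supply stood higher as well. The immunoproteasome subunits Psmb8 (chromosome 17, 34197721 to 34201454; 558 against 64.6 CPM, 3.11), Psmb9 (258 against 42.6 CPM, 2.59) and Psmb10 (212 against 35.4 CPM, 2.58) replace the constitutive catalytic subunits. Psmb8 had a median of 4 UMIs per member (highest 26) and was in 88.5% of members against 35.1% of other cells. The peptide transporter genes Tap1 (180 against 24.2 CPM, 2.89) and Tap2 (164 against 31.0 CPM, 2.40) and the loading factor Tapbp (209 against 42.8 CPM, 2.29) were likewise higher. Nlrc5, the activator of class I genes, was too low to pass the minimum, at 15.1 against 2.23 CPM. H2-Q6 and H2-Q7 are near copies, so their split of reads (45.3 and 278 CPM in members) is uncertain. Of the 21 genes, 14 lie on chromosome 17, which held 22 of the 128 genes that were at least 2-fold higher and 376 of the 7480 tested.

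The interferon-inducible GTPases were low in other cells and higher in members. Of 13 genes measured outside the rule, 7 passed the minimum and all 7 were at least 2-fold higher, but only 2 would have passed on the other cells alone. Their median log2 ratio was 5.26, and 3.48 for those 2. The summed level was 911.5 CPM in members, 57.3 in other cells and 10.3 in keratin-rich barcodes. Irgm1, a regulator of autophagy of pathogens (chromosome 11, 48861968 to 48871683), had a median of 2 UMIs per member (highest 15) and stood at 269 against 30.2 CPM (3.15, 2.97 to 3.33), in 77.7% and 19.7% of cells. Gbp6 (chromosome 5, 105270702 to 105293698) stood at 181 against 4.72 CPM (5.26, 4.95 to 5.58), with a median of 1 UMI and a highest of 18, in 57.6% of members against 3.51% of other cells. Igtp (chromosome 11, 58199556 to 58207591; 158 against 8.09 CPM, 4.29) and Gbp3 (chromosome 3, 142560026 to 142573209; 149 against 10.6 CPM, 3.81) were in 51.1% and 65.5% of members. Gbp4 and Gbp5 were at 29.5 and 19.4 CPM in members, with 0.0756 CPM each in other cells. Tgtp1 and Tgtp2 are near copies and stood at 42.4 and 38.8 CPM.

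Antiviral effectors were more uneven. Of 32 genes measured, 17 passed (11 on the other cells alone) and 14 were at least 2-fold higher, with a median log2 ratio of 2.54 that became 1.84 over the 11. The summed level was 4830 CPM in members, 1342 in other cells and 1901 in keratin-rich barcodes. Most of it came from genes that most cells had: Ifitm3, which blocks virus entry (1553 against 268 CPM, 2.53), and Bst2, which tethers virions to the membrane (1376 against 385 CPM, 1.84), were in 97.1% and 98.6% of members. Ifitm2 differed little (324 against 291 CPM, 0.15). Ifit1, which binds foreign RNA lacking a proper cap (chromosome 19, 34640871 to 34650009), was different in kind: its median was 0 UMIs per member and its highest 56, with 132 against 2.46 CPM (5.75, 5.34 to 6.18), in 25.2% against 1.81% of cells. A single member held 30.4% of the Ifit1 UMIs. Rsad2, which makes a chain-terminating nucleotide, was alike (84.9 against 1.78 CPM, in 16.5% of members, 28.8% of its UMIs in 1 cell). Ifit3b stood at 94.2 CPM, but it is a near copy of Ifit3 of the rule. Rtp4 (chromosome 16, 23520291 to 23614222; 127 against 15.8 CPM, 3.01) and Xaf1 (171 against 28.4 CPM, 2.58) were in 56.1% and 71.2% of members.

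The signalling chain differed by level. No ligand was found: Ifng, Ifnb1, Ifna2, Ifna4, Ifnk, Ifne, Ifnl2 and Ifnl3 all had 0 UMIs in members and in other cells, and over the 11010 barcodes of the library only Ifnk was detected, with 2 UMIs. A count of 0 in 139 members allows a share of up to 2.62% of cells with a UMI (exact 95% interval). Of 9 receptor and kinase genes, 7 passed, all on the other cells alone, and none differed by 2-fold. Their median log2 ratio was -0.02, and the list summed to 409 against 337 CPM. Ifngr1 (29.5 against 25.7 CPM, 0.20, -0.29 to 0.66) and Ifngr2 (33.1 against 33.8 CPM) had intervals across 0, and so did Ifnar1 and Jak2. Ifnar2 (142 against 98.1 CPM, 0.53, 0.31 to 0.74) and Jak1 (135 against 101 CPM, 0.42) were slightly higher. Downstream, Irf7, which amplifies type I interferon genes (chromosome 7, 141262706 to 141266481), stood at 103 against 8.01 CPM (3.68, 3.37 to 4.00) and was in 50.4% of members. Stat2 (2.13), Irf1 (2.35) and Irf9 (1.56) followed, and Stat3 (0.66), Irf2 (0.89) and Irf3 (-0.40) were within 2-fold. In all, 9 of 11 STAT and IRF genes passed (7 on the other cells alone) and 6 were at least 2-fold higher, among them Batf2 at 22.3 against 0.907 CPM. The list summed to 884 against 245 CPM. Irf7 and Batf2 passed only through the members.

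Genes that follow or limit the response were mixed. All 8 genes of ISG15 conjugation and of interferon-linked PARP proteins passed and were at least 2-fold higher (3 would have passed on the other cells alone), with Ube2l6, the conjugating enzyme, at 130 against 26.4 CPM and Parp14 at 54.7 against 4.65 CPM. The list summed to 423 against 77.1 CPM. Of 10 nucleic acid sensors 5 passed, none of them on the other cells alone, so that their direction was fixed by the minimum. Over all 10 the sum was 232 CPM in members and 43.2 CPM in other cells. They include Ddx58, which encodes RIG-I (67.6 against 6.42 CPM, 3.40) and Zbp1, a sensor of Z-form nucleic acid (47.5 against 1.25 CPM, 5.25). Of 7 feedback inhibitors 5 passed (3 on the other cells alone), with a sum of 203 against 108 CPM over the list. The 2 that were at least 2-fold higher, Usp18, which blocks the type I receptor (44.6 against 4.04 CPM, 3.46), and Socs1 (18.7 against 5.33 CPM, 1.81), passed only through the members. Socs3 did not differ beyond counting error (46.8 against 41.1 CPM, 0.19, -0.20 to 0.55).

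**Figure D2:**
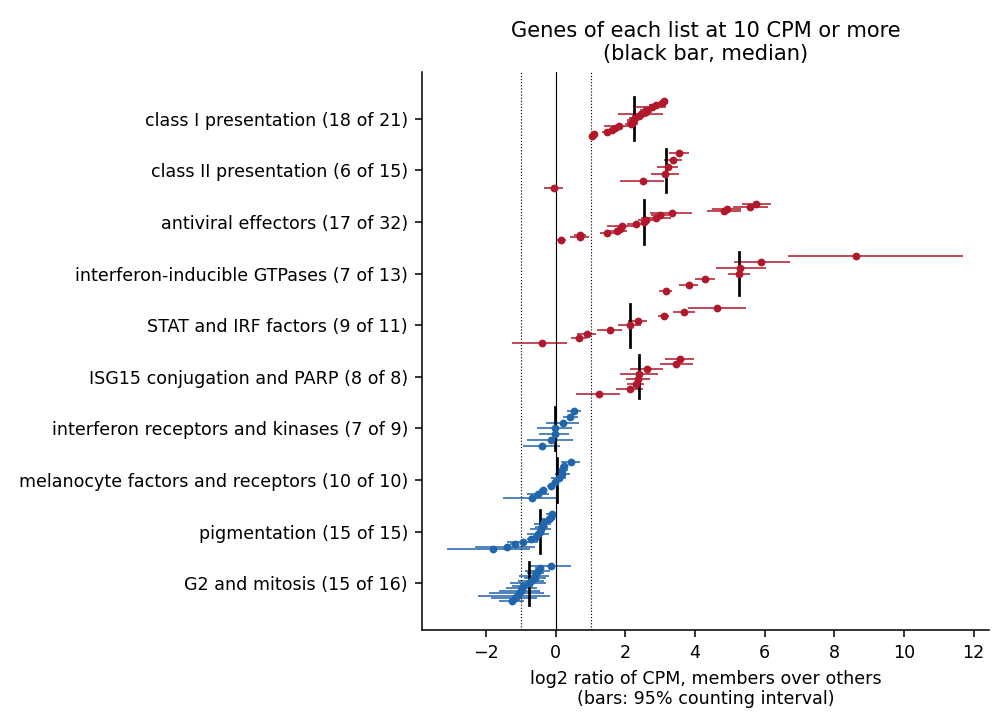
Log2 ratio of CPM in members over other cells for the genes of 10 lists that reached 10 CPM, with 95% counting intervals. The numbers beside each list give the genes that passed of those measured, black bars are medians, and dotted lines mark 2-fold. Receptors and kinases lie about 0 (median -0.02), whereas class I (2.25) and GTPases (5.26) lie to the right and pigmentation genes (-0.44) to the left.

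Chemokine UMIs were concentrated in part of the members. Of 13 genes, 3 passed (2 on the other cells alone), all at least 2-fold higher, and the list summed to 1709 CPM in members, 47.8 in other cells and 185 in keratin-rich barcodes. Cxcl9 and Cxcl10 are ligands of Cxcr3, the receptor that guides activated T cells. Cxcl9 (chromosome 5, 92321347 to 92328079) was the gene with the largest ratio under the rule for named genes, at 869 against 11.5 CPM (6.25, 6.06 to 6.43). It had 0 UMIs in the median member and 286 in the highest, which held 23.7% of its UMIs, and it was found in 17.3% of members, 1.21% of other cells and no keratin-rich barcode. Cxcl10 (chromosome 5, 92346638 to 92348889) stood at 786 against 26.2 CPM (4.91, 4.77 to 5.05), with a highest cell of 164 UMIs. It was in 41.0% of members and 12.1% of other cells. For both chemokines together, 65 members had a UMI and the top 14 members by their UMIs held 74.6% of the UMIs. Ccl5, the third, was at 22.3 CPM in 4.32% of members.

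Class II presentation, which shows outside peptides to CD4 T cells and is normally a task of professional antigen-presenting cells, was uneven among members as well. A UMI of any of the 15 genes was in 63.3% of members and 57.2% of other cells, but the 4 genes H2-Ab1, H2-Aa, Cd74 and H2-Eb1 were in a minority. Of 15 genes, 6 passed (3 on the other cells alone) and 5 were at least 2-fold higher, with a median log2 ratio of 3.18 and summed levels of 527 CPM in members, 130 in other cells and 137 in keratin-rich barcodes. The median ran from 2.29 with members chosen on Ifit3 and Isg15 to 3.83 without cells holding Mki67 or Top2a, and H2-Aa from 2.29 to 4.56 under the same choices. H2-Ab1 (chromosome 17, 34257689 to 34269419; 135 against 13.1 CPM, 3.37), H2-Aa (chromosome 17, 34282744 to 34287823; 115 against 9.86 CPM, 3.54) and Cd74, the invariant chain (101 against 10.8 CPM, 3.22) had medians of 0 and highest cells of 24, 22 and 24 UMIs. They were in 33.1%, 23.02% and 14.4% of members. With H2-Eb1 added, 53 of 139 members (38.1%, 30.0 to 46.8) and 208 of 2646 other cells (7.86%, 6.86 to 8.95) had a UMI, and the top 14 members held 76.8% of these UMIs. Ciita, the master activator of class II genes, was found at 4.32 CPM against 0.0378. Ifi30, a lysosomal thiol reductase of the same list, did not differ (80.6 against 83.7 CPM, -0.06). At full depth, 1 member and 84 other cells held an immune marker UMI. That member had none of the UMIs of these 4 class II genes, whereas the 84 other cells held 38.8% of the Cd74 UMIs and 22.99% of the H2-Aa UMIs of their group. Without such cells, Cd74 stood at 101 CPM in members and 6.83 in other cells, and H2-Aa at 116 and 7.85.

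Genes of immune checkpoints and killing varied. Of 15 genes, 7 passed (5 on the other cells alone) and 3 were at least 2-fold higher, with sums of 669 and 314 CPM. Their median log2 ratio of 0.92 was 1.79 with the top 2% of cells, 1.72 in cells without a keratin UMI and 0.56 over genes of at least 10 CPM in other cells. Cd274, which encodes the inhibitory ligand PD-L1, was at 69.1 against 8.16 CPM (3.08, 2.72 to 3.43) and in 28.8% against 6.92% of cells. The others were Casp4 (70.5 against 19.0 CPM, 1.89) and Mlkl, the executor of necroptosis (29.5 against 5.90 CPM, 2.32). Cd274 and Mlkl passed only through the members. Cd47, the signal against phagocytosis, stood at 350 against 184 CPM (0.92). Of 8 complement genes 3 passed (2 on the other cells alone, and Serping1 through the members), with a sum of 272 against 114 CPM and with C4b at 96.4 against 29.0 CPM (1.73), Serping1 at 22.3 against 1.17 CPM and C2 at 150 against 83.6 CPM (0.84). NF-kB targets were closer to other cells: 4 of 10 passed (3 on the other cells alone). The adhesion molecule Vcam1, which passed through the members, was the 1 past 2-fold (17.99 against 4.84 CPM), while the inhibitor Nfkbia was at 247 against 153 CPM (0.69) and the whole list summed to 344 CPM in members, 208 in other cells and 1684 in keratin-rich barcodes.

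**Figure D3:**
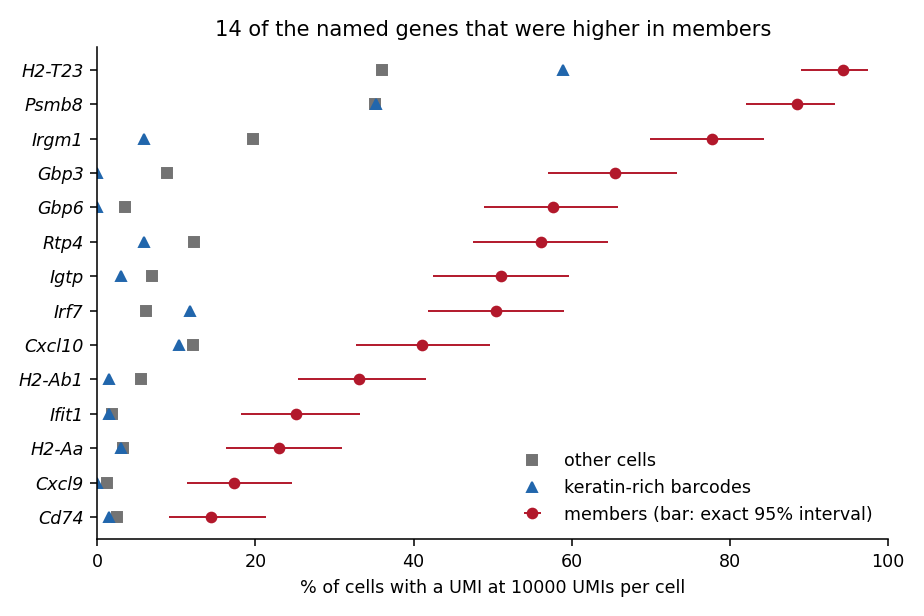
Share of cells with a UMI at 10000 UMIs per cell for 14 of the named genes that were higher in members: 139 members (red circles, exact 95% intervals), 2646 other cells (grey squares) and 68 keratin-rich barcodes (blue triangles). Shares in members run from 14.4% for Cd74 to 94.2% for H2-T23.

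Free RNA in the droplets can give UMIs to cells that do not express a gene. In barcodes of under 1000 UMIs, of which there were 1973, the 6 rule genes summed to 202 CPM at full depth, against 120 in other cells, 2765 in members and 109 in keratin-rich barcodes, whose median depth was 40962 UMIs. In the same shallow barcodes, chemokines summed to 111 CPM and GTPases to 87.0 CPM, against 47.8 and 57.3 CPM in other cells. Class II genes summed there to 236 CPM, against 130 CPM in other cells and 527 CPM in members. How much of the low shares in other cells was free RNA was not tested. Cxcl9 UMIs in other cells were not spread evenly: 32 cells held 303 of them, and 1 cell held 68.

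Pigmentation genes were lower in members. All 15 genes of the list had ratios under 0, with a median log2 ratio of -0.44, and 3 were at least 2-fold lower; the list summed to 15140 CPM in members and 19146 in other cells. Trpm1, a melanocyte channel (chromosome 7, 64153835 to 64269775), stood at 306 against 693 CPM (-1.18, -1.32 to -1.04) and was in 56.1% against 75.9% of cells. Its ratio was -2.00 with the top 2% of cells and -0.82 with members chosen on Ifit3 and Isg15. Oca2, the late pigmentation gene for a melanosomal chloride conductance, had a UMI in 4 of 139 members (2.88%, 0.790 to 7.204) and in 296 of 2646 other cells (11.2%, 10.0 to 12.4), and 1 member held 76.9% of its UMIs. Slc24a4 was at 5.04 against 17.4 CPM (-1.79). The melanin enzymes and matrix proteins differed less: Tyr -0.57, Pmel -0.44, Mlana -0.33 and Tyrp1 -0.13. The 10 melanocyte factors and receptors did not share this direction as a list. Of them, 5 lay above 0 and 5 under 0 (lowest -0.67), with a median of 0.04 and none past 2-fold. Mitf was at 404 against 444 CPM, Pax3 at 451 against 384 CPM and Kit at 492 against 494 CPM.

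Gene lists linked to the stem-cell end of these libraries stood on the other side. The 6 genes enriched in stem cells were all above 0 (median 0.42, from 0.10 for Cdh1 to 0.73 for Hspa1a), with none past 2-fold. Hspa1a also belongs to the list of dissociation and heat shock given below. The 6 surface markers of cells without Oca2 were also all above 0 (median 0.66), and Apod, a secreted lipid carrier, was past 2-fold at 511 against 164 CPM (1.64, 1.52 to 1.75), with a median of 2 UMIs per member (highest 38). Cd200, a ligand that restrains myeloid cells, was at 106 against 58.1 CPM (0.87). Both lists came from earlier work on these same libraries, so their direction is not independent evidence.

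Proliferation genes were lower in part. Of 16 genes of G2 and mitosis, 15 passed and 5 were at least 2-fold lower (median -0.77), with Ube2c, which drives mitotic exit (chromosome 2, 164769898 to 164778822), at 49.6 against 119 CPM (-1.26, -1.62 to -0.91) and Birc5 (chromosome 11, 117849251 to 117855743), a chromosome passenger, at 67.6 against 130 CPM (-0.95). This depended on how members were chosen. With members chosen on the 4 GTPase genes of the rule, the median was -0.21, Ube2c was at -0.62 and Birc5 at -0.29. With cells of more than 5000 UMIs thinned to 5000, the median was -1.34. Ube2c was at -2.23 with the top 2% of cells and at -2.89 without cells holding a Mki67 or Top2a UMI. A UMI of Mki67 or Top2a was in 40 of 139 members (28.8%, 21.4 to 37.1) and in 960 of 2646 other cells (36.3%, 34.4 to 38.1), intervals that overlap. Of 14 S phase genes none was past 2-fold (median -0.23), and the replication clamp Pcna was at 209 against 197 CPM. The named lower genes also held 3 replication-dependent histone genes. These were Hist1h1b (-1.08, but 0.058 when cells with a Mki67 or Top2a UMI were left out), Hist1h2ap (-1.02, 191 against 385 CPM) and Hist1h2ae (-0.85). The last 2 had UMIs in only 16 and 13 members. Under the alternatives run, Hist1h2ap ranged from -1.40 to -0.49 and Hist1h2ae from -1.36 to -0.27, both smallest without thinning. The centromeric histone Cenpa was at -1.07, but at -0.21 when cells with a Mki67 or Top2a UMI were left out and -2.00 with the top 2%. Id2, an inhibitor of differentiation factors, stood at 111 against 212 CPM (-0.94, and -1.71 with the top 2%), and Snx15 at -0.92. The largest difference among the named lower genes was that of Cthrc1, a secreted modulator of collagen and of WNT signalling. Cthrc1 (chromosome 15, 39076932 to 39087121) stood at 46.0 against 143 CPM (-1.63, -2.01 to -1.28). Cthrc1 was at -0.63 with the top 10% of cells.

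Stress genes gave smaller differences. The 15 genes of dissociation and heat shock had a median of 0.23 with none past 2-fold, led by Hspa1a (664 against 401 CPM, 0.73), which shares reads with its near copy Hspa1b. Of 8 p53 targets, only Cdkn1a, the cell cycle inhibitor p21, was past 2-fold (96.4 against 42.5 CPM, 1.18, 0.91 to 1.44), while Mdm2 (32.4 against 32.3 CPM) and Bax (219 against 237 CPM) were alike.

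Among the 53 genes at least 2-fold higher outside the lists, several are known as interferon-inducible, and they were picked here after their values were seen. They include Rnf213, a giant ubiquitin ligase (75.5 against 10.3 CPM, 2.87), Ifi35 (137 against 33.1 CPM, 2.05) and its partner Nmi (69.1 against 18.6 CPM, 1.90), Calhm6 (56.8 against 1.398 CPM, 5.35), and Gbp2b, a near copy of Gbp2 of the rule (74.1 against 2.83 CPM). Ly6a, which encodes Sca-1, had 36 UMIs in members, in 6.47% of them, and 0 in other cells, but it stood at 216 CPM in keratin-rich barcodes. Hspb1, a small heat shock protein, was at 214 against 82.2 CPM (1.38) and at 1499 CPM in keratin-rich barcodes. Whether keratinocyte RNA had a part in these 2 genes was not tested.

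The members differed among themselves in which interferon genes they held. Of 17 mainly type I genes 12 passed the minimum (2 on the other cells alone) and of 20 mainly gamma genes 15 did (6), all at least 2-fold higher, with medians of 3.43 and 3.54. Over the genes that passed on the other cells alone, the medians were 2.80 and 3.29. The lists summed to 1040 against 90.5 CPM and to 2370 against 141 CPM. With members chosen on the 4 GTPase genes of the rule, the type I median was 2.77. Of the members, 124 (89.2%) had UMIs of both kinds, 3 of type I genes alone and 12 of gamma genes alone, compared with 26.2% with both and 31.7% with neither among other cells. Type I genes had a median of 6 UMIs per member (0 to 167) and gamma genes a median of 10 (0 to 366). Across the 139 members the levels of both kinds had a Spearman rho of -0.05, against 0.23 across the other cells, as a description only, since the points share a library and members were selected on a sum of genes of both kinds.

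The rule itself was then taken apart, which fixes in part what the resulting groups hold, since its GTPase genes respond mainly to gamma and Ifit3 and Isg15 mainly to type I interferon. The levels of type I and gamma genes in these groups are thus a description and no sign of a split. If the top 5% had been chosen on the 4 GTPase genes of the rule alone (Gbp2, Iigp1, Ifi47 and Gbp7), 105 of the 139 cells would be members, and on Ifit3 and Isg15 alone, 84 would be. The choices shared 50 cells (36.0% of each). The 50 members picked both ways had the highest levels: 1838 CPM of type I genes, 3840 CPM of gamma genes, 1886 CPM of Cxcl10 and 302 CPM of Ifit1. The 55 members picked by the GTPase genes only had gamma genes at 2242 CPM but type I genes at 298 CPM, with Cxcl9 at 865 CPM, H2-Aa at 153 CPM and Ifit1 at 5.45 CPM. The 34 members picked by Ifit3 and Isg15 only had type I genes at 1068 CPM, gamma genes at 415 CPM, no Cxcl9 UMI, and a UMI of H2-Aa in 1 cell. Pigmentation genes summed to 14922, 12644 and 19500 CPM in these groups, of which the last is near the 19146 CPM of other cells, and Trpm1 stood at 186, 236 and 594 CPM. Genes of G2 and mitosis summed to 598, 1409 and 579 CPM, so that the members picked by the GTPase genes only were near the 1449 CPM of other cells. Apod was alike in them (590, 478 and 447 CPM). These groups were made after earlier results of the data were known and hold few cells.

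**Figure D4:**
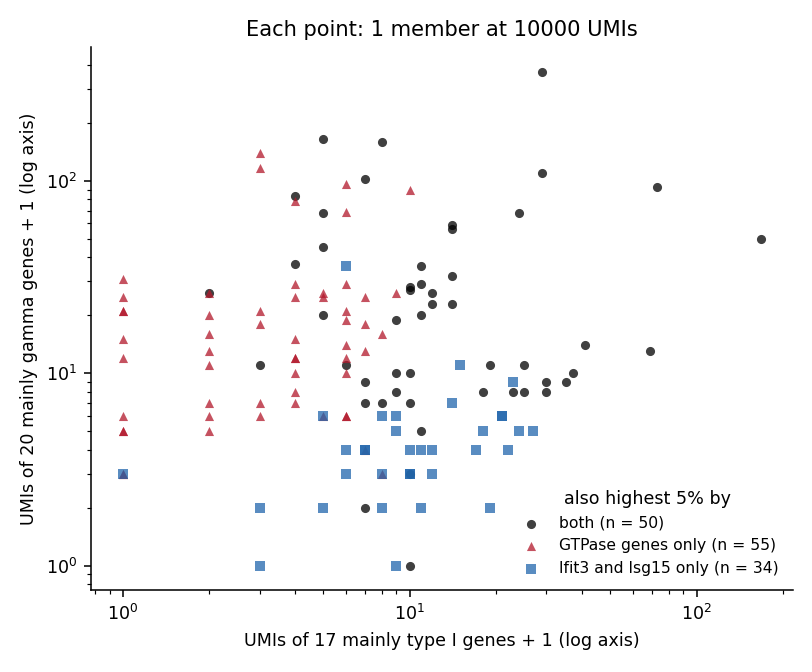
UMIs of 17 mainly type I genes (x) and 20 mainly gamma genes (y), plus 1, in each of the 139 members at 10000 UMIs, on log axes. Black circles are the 50 members that both smaller gene sets would choose, red triangles the 55 chosen by the GTPase genes only and blue squares the 34 chosen by Ifit3 and Isg15 only. The last group lies low on the y axis.

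Ordered by the share of the rule genes, the cells formed a gradient in several lists, though not in all. In the highest 1% (28 cells), the next 1% (28 cells) and the last 3% of the members (83 cells), class I genes summed to 16671, 11632 and 10253 CPM, and GTPases to 2118, 900 and 508 CPM. Outside the members the levels went on downwards, to 6509 and 277 CPM in the next 5% of cells (139 cells) and to 3530 and 25.3 CPM in the lower 50% (1393 cells). Chemokines were steeper, from 4332 CPM at the top to 209 CPM just outside the members and 32.6 CPM in the lower 50%. Class II and type I genes did not fall steadily within the members, at 746, 343 and 514 CPM and at 2514, 629 and 682 CPM. Receptors and kinases were at 468 CPM at the top and 324 CPM in the lower 50%. Pigmentation genes went the other way, with 13554 and 12829 CPM in the 2 highest groups, 16455 CPM in the other members, 17109 CPM in the next 5% and 19494 CPM in the lower 50%. Oca2 had no UMI in the 56 highest cells and 27.3 CPM in the lower 50%, and Apod went from 725 to 127 CPM.

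**Figure D5:**
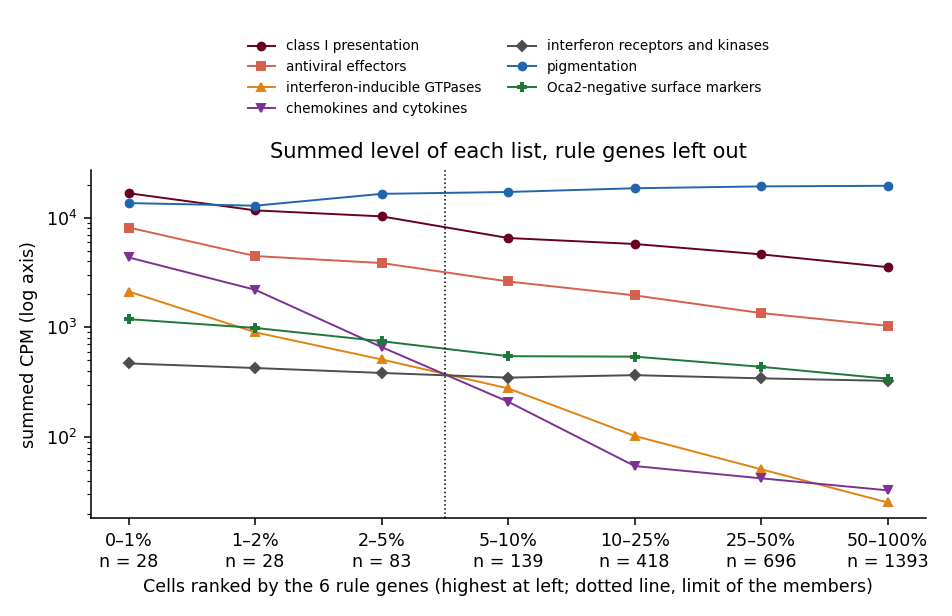
Summed CPM of 7 gene lists (log axis) in cells ordered by their share of the 6 rule genes, from the highest 1% (28 cells) to the lower 50% (1393 cells), with the rule genes left out. The dotted line is the limit of the members. Levels of class I genes, antiviral effectors, GTPases and chemokines go down from left to right across that limit. Pigmentation genes go from 13554 CPM to 12829 CPM in the next 1% and then up to 19494 CPM.

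In the bulb library, 3734 of 4327 barcodes passed the like filter (more than 5000 UMIs), and the rule genes stood at 20.9 CPM, with 5 cells (0.134%, 0.0435 to 0.312) at or over the lowest share of the members. Class I genes summed to 1854 CPM, GTPases to 6.85, chemokines to 1.70 and class II genes to 31.1, each below the other early-anagen cells, and pigmentation genes to 65282 CPM. Kit chemistry (version 3 for early anagen, version 2 for the bulb), depth, age and dissection changed together with the condition, so they cannot be told apart.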

How the data were processed

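Each library came as a matrix in which the authors deposited unnormalized UMI counts by gene and barcode (Cell Ranger 6.0.1, mm10, which is GRCm38). No columns of other samples were present. Barcodes were filtered and members taken as given above. Cells were thinned without replacement to 10000 UMIs, summed over 139 members (1390000 UMIs) and 2646 other cells (26460000 UMIs) and scaled to CPM. Ratios carry exact 95% Poisson intervals and shares Clopper-Pearson intervals. A gene at 0 was bounded at 3 counts. The early-anagen library held 116800173 UMIs and the bulb library 58161397. The members and lists were chosen with earlier results of these data known.

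Genes are named when they belong to a list, or when they are among the 15 highest or 10 lowest ratios at 50 CPM or more. This ranking left out the rule genes, mitochondrial genes, genes of ribosomal proteins and unnamed gene models. Other named genes are those of the cell checks and 7 genes outside the lists, picked after their values were seen. Of 342 list genes, 6 were not analysed here. Results of some other genes are not reported here. Positions are those of GENCODE on GRCm38 (32158 of 32285 genes matched). The study's sort discriminated doublets. No doublet caller was run here, and the keratin filter left cells with up to 2 keratin UMIs (91 of 139 members had none). Reads of near copies and overlapping genes may be split wrongly. Alternatives were other shares of top cells, other rule genes, depths, minimum levels and cell filters. On simulated Poisson sums of members over others (17385 genes), the interval held the true ratio for 96.2% of 7256 unchanged genes and for 90% of 50 genes raised 2-fold. The interval assumes the same Poisson model, so this checked the calculation and says nothing about spread between cells. Python 3.11.15, NumPy 2.4.6, SciPy 1.17.1 and pandas 2.3.3 were used.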

Additional observations from a re-analysis of the deposited data

Results flagged for a closer look

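Some barcodes outside the filter reached the lowest share of the rule genes among members. Of 569 barcodes with 5000 to 10000 UMIs that otherwise passed, 62 did so (10.9%, 8.46 to 13.8). Their type I genes summed to 1373 CPM and their GTPases to 816 CPM, against 1040 and 911.5 CPM in members. Gamma genes summed to 1220 CPM and class II genes to 315 CPM, against 2370 and 527 CPM. Chemokines summed to 73.0 CPM and mitotic genes to 228 CPM, against 1709 and 914 CPM. Of 305 deep barcodes at or over the mitochondrial limit, 7 reached the same share, with class I genes at 13252 CPM. Of 677 deep barcodes with 3 or more keratin UMIs, 8 did so, with Dct at 3653 CPM and chemokines at 1822 CPM. Whether depth, mitochondrial share or doublets played a part was not tested.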

How the results depend on the processing

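The medians of class I, class II, antiviral, GTPase and pigmentation genes kept their sign under the alternatives run. Every alternative still chose its members on genes of the rule. At the reported minimum, 2 of 7 GTPases and 3 of 6 class II genes passed on the other cells alone. The sign of the others in these 2 lists was fixed by that minimum. With the top 2% of cells, the median log2 ratio was 2.56 for class I, 2.82 for class II, 2.88 for antiviral effectors and -0.80 for pigmentation, and 9 of the 15 named higher genes were shared. With the top 10% it was 1.76 for class I, 2.42 for class II, 2.04 for antiviral effectors and 4.44 for GTPases. With members chosen on Ifit3 and Isg15 it was 1.69 for class I, 2.29 for class II, 2.32 for antiviral effectors, 3.63 for GTPases and -0.20 for pigmentation. With the 4 GTPase genes, antiviral effectors gave 2.32. Class II gave 2.47 in cells without a keratin UMI, 3.54 without cells holding an immune marker UMI and 3.83 without cells holding Mki67 or Top2a. Antiviral effectors gave 2.36 at 5000 UMIs per cell, 3.13 with no minimum level and 1.84 at 50 CPM, and GTPases 4.05 at 50 CPM. Chosen after seeing the data, a minimum of 10 CPM in other cells gave 1.84 for antiviral effectors and 3.48 for GTPases, and removal of the 14 members highest in the rule genes gave 2.11 for antiviral effectors. Among single genes, Hist1h1b turned from -1.08 to 0.058 without cells holding Mki67 or Top2a. Of the 117 other shifts of single-gene ratios beyond the counting interval, 40 (in 18 genes) were over 1.5-fold. Cxcl9 went from 6.25 to 4.16 with Ifit3 and Isg15, Ifit1 from 5.75 to 4.63 and Cxcl10 from 4.91 to 3.94 without the 14 highest members, Cd74 from 3.22 to 2.23 without a keratin UMI, Cthrc1 from -1.63 to -0.63 with the top 10%, and the G2 and mitosis median from -0.77 to -0.21 with the 4 GTPase genes. Medians of 14 other lists left their counting interval 51 times, and some of these are given here. STAT and IRF factors went from 2.13 to 1.59 with the top 10%. With Ifit3 and Isg15, complement went from 1.73 to 0.91, chemokines from 6.03 to 4.39 and gamma genes from 3.54 to 2.68. Complement was at 4.25 with no minimum level, and gamma genes at 4.50 without cells holding Mki67 or Top2a. Type I genes went from 3.43 to 2.77 with the 4 GTPase genes. The p53 targets changed sign, from -0.06 to 0.53 at 50 CPM. Under the other choices 10 to 15 of the 15 named genes were shared. No paired analysis was possible because each condition had 1 library. With 1 library, neither mice nor batches could be separated, and depth limits genes of a few CPM, for which 1390000 member UMIs give only a few counts.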
